A study of Mus musculus with 2 samples.

Results

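The cycling CD8 T cells described here were cells of mouse B16 melanomas whose libraries held both CD8 transcripts and transcripts of dividing cells. A cell counted as a CD8 T cell if its UMIs (unique molecular identifiers, 1 for each captured RNA molecule) of *Cd8a* and *Cd8b1* outnumbered those of *Cd4* and *Foxp3* and if it held at least 1 UMI of *Cd3d*, *Cd3e* or *Cd3g*. It counted as cycling if it held at least 3 UMIs of *Mki67*, *Top2a*, *Cdk1* and *Birc5* together. The rule found 232 cells among 1510 CD8 T cells (15.4%, 95% interval 13.6 to 17.3%), which were part of 9844 cells past the quality filter and of 14035 barcodes in all. The comparison cells were the 981 CD8 T cells in which the sum was 0, called non-cycling here, and the 297 cells with a sum of 1 or 2 entered neither group. The members were chosen by measured UMIs of the CD8, CD4, CD3 and cell cycle genes named, so every difference between the groups below is a description with no test.

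The study asked how IL-33 in the tumor changes T cells. TCR-β+ T cells were sorted from 2 kinds of tumor: B16, a melanoma cell line of C57BL/6 mice, and B16–IL-33, the same line made to overexpress and secrete the cytokine IL-33. Both were grown from 100000 cells inoculated intradermally into C57BL/6J mice and taken on day 9, with no other treatment; the number and the age of the mice are not given in the sources used here. The cells were marked with tumor-specific hashtag antibodies and pooled into 1 droplet library of 5′ gene expression with matched hashtag and TCR libraries, so all cells come from 1 sample, and the intervals given cover counting error only.

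A T cell that has met its antigen leaves quiescence, copies its genome in S phase, and builds a spindle to part the copies in G2 and M phase. The genes for copying are mostly driven by E2F factors, and the genes for division by the MuvB complex with B-Myb and FoxM1, which bind promoters at a short element called CHR, often near CCAAT boxes read by NF-Y. In tumors, dividing cells are a known component of the effector and exhausted CD8 T cell pool.

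*Mki67* (chr7:135689784-135716361, minus strand, mm10) encodes Ki-67, the coat of mitotic chromosomes. *Top2a* (chr11:98992943-99024189, minus) encodes the topoisomerase that untangles DNA, *Cdk1* (chr10:69335146-69352938, minus) the kinase that starts mitosis, and *Birc5* (chr11:117849251-117855743, plus) survivin, a subunit of the chromosomal passenger complex. The RefSeq promoters of the first 3 (build GRCm38.p6) are shown because they hold the CHR letters in the stretch from 150 to 31 bases before the RefSeq start of the gene. For *Mki67* and *Cdk1* that start differs from the one in the gene positions above, which came from GENCODE. Capitals mark the CHR letters TTTGAA or TTCGAA and the CCAAT box, each read on either strand, so that ATTGG is CCAAT on the other strand. The stretches lie at chr7:135716410-135716529, chr11:99024220-99024339 and chr10:69352943-69353062, all on the minus strand.
Mki67: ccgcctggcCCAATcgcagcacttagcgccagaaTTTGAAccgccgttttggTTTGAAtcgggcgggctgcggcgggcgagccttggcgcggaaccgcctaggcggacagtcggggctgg
Top2a: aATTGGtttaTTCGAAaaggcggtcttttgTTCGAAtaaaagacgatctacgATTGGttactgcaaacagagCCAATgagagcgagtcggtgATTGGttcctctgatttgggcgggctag
Cdk1: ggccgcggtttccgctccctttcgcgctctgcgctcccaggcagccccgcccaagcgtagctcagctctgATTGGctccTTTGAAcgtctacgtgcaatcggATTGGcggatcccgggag
The *Mki67* stretch held 2 CHR matches and 1 CCAAT box, that of *Top2a* 2 and 4, and that of *Cdk1* 1 and 2. The *Birc5* window held neither set of letters, which says only that they are not in it. How often the same letters stood before the other genes is given with those genes.

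The members held 3 to 93 UMIs of the 4 genes, with a median of 10. *Birc5* was detected in 204 of 232 cells (87.9%), *Mki67* in 189 (81.5%), *Top2a* in 179 (77.2%) and *Cdk1* in 124 (53.4%). All 4 genes were detected together in 86 cells, and 13 cells passed on 1 gene alone. In CPM (the UMIs of the gene divided by all UMIs of the group, scaled to the same total in each group, the unit of every level below), *Birc5* stood at 381, *Top2a* at 267, *Mki67* at 229 and *Cdk1* at 103, with 0 in the comparison cells by the rule. Just inside the threshold stood 28 cells with a sum of 3, and just outside it 68 cells with a sum of 2. Their median UMIs per cell were close, at 9956.5 and 8288.

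The rule used the CD8 and CD3 genes, so their values describe the choice and do not check the label. *Cd8a*, the alpha chain of the coreceptor, was detected in 220 members and *Cd8b1*, the beta chain, in 226. A UMI of *Cd4* or *Foxp3* was present in 36 members. Of 4 NK cell markers, *Ncr1* and *Klrb1c* were at 0 in all 232 cells, and the other two, *Klrk1* and *Eomes*, which CD8 T cells also express, brought the list to 475 UMIs in 167 members. The B cell list had 136 UMIs in 56 members, with *Cd79a* and *Ms4a1* at 0, and the dendritic cell list 136 UMIs in 39 members, with *Flt3* and *Clec9a* at 0. The 4 regulatory T cell markers, of which activated CD8 T cells also express *Il2ra* and *Ctla4*, had 1018 UMIs in 190 members (310 CPM, against 481 in non-cycling cells). A macrophage or monocyte marker was present in 43 members and a melanoma marker in 17, and 16 members held many such UMIs. Of 1321 UMIs of 6 melanoma markers, 98.6% lay in 3 members, and of 1524 UMIs of 8 macrophage or monocyte markers, 97.0% lay in 13 members. These 16 are called mixed droplets below, by a minimum of 10 such UMIs that was chosen after seeing the data. Of the comparison cells, 14 were mixed by the same minimum. The minimum was not applied to the other lists. Outside the mixed droplets, a member held up to 29 dendritic cell, 17 B cell, 1 neutrophil and 37 regulatory T cell marker UMIs. A comparison cell held up to 13, 20, 93 and 50.

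The groups differed in depth. The members held a median of 12439 UMIs (range 2539 to 60408), against 3248 in non-cycling cells and 5648 in the cells between. More than 2500 genes, the upper limit in the study's methods, were detected in 163 members (70.3%) and in 4.89% of the comparison cells. A minimum of 3 UMIs is reached more easily in a deeper cell, so depth and division cannot be told apart in this contrast. The contrast was therefore also made with only cells of at least 8000 UMIs and without mixed droplets, a comparison chosen after seeing the data that left 166 members with a median of 14236.5 UMIs and 73 non-cycling cells with 10990. These are called deep cells below. A *Cd4* or *Foxp3* UMI was present in 23 of the 73 deep non-cycling cells, 21 of the 166 deep members and 105 of all 981 non-cycling cells. A *Gzmb* UMI was present in 55, 151 and 500 of them. A deeper cell also shows such a UMI more easily. Deep ratios therefore rest on comparison cells that may differ in kind as well as in depth, and the part of each was not tested.

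**Figure D1:**
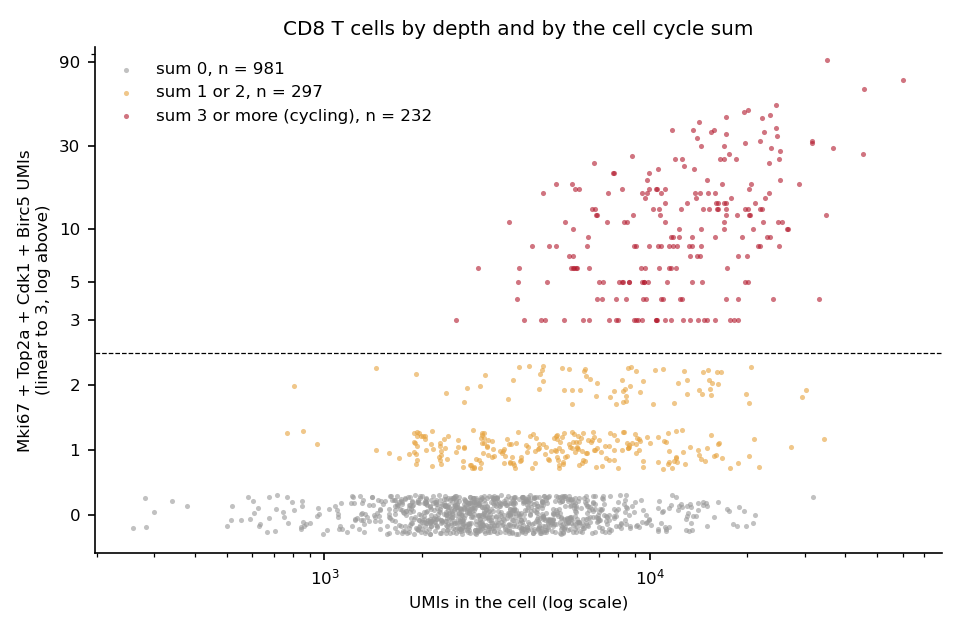
Each point is 1 of the 1510 CD8 T cells, placed by its UMIs (log scale) and by its sum of Mki67, Top2a, Cdk1 and Birc5 UMIs (linear to 3, log above; points up to 2 are spread vertically for sight). The dashed line separates the 232 cycling cells, which start at 2539 UMIs, from 297 cells with a sum of 1 or 2 and 981 with 0.

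Of 8020 genes with at least 50 UMIs in both groups together, 680 (8.48%) were at least 2-fold higher in cycling than in non-cycling cells and 587 (7.32%) at least 2-fold lower, while the median ratio over all tested genes was 1.03. Among deep cells 508 of 5664 (8.97%) were higher and 134 (2.37%) were lower, with a median ratio of 1.07 over all tested genes. The share of higher genes was thus about the same where the groups were nearer in depth, and the share of lower genes was smaller. The genes with the highest ratios included genes of the spindle and of replication: *Aspm*, a spindle pole protein, had 106 UMIs in members against 1 (ratio 131, 23.1 to 5236), *Nek2*, a centrosome kinase, 85 against 1 (105, 18.4 to 4208), and *Mcm10*, an initiation factor of replication, 68 against 1 (84.3, 14.6 to 3376).

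The genes that license origins and open the helix stood higher nearly without exception. Of 19 tested licensing genes, 18 were at least 2-fold higher and 0 lower, with a median ratio of 5.58 (3.37 in deep cells). *Mcm3*, a subunit of the replicative helicase, was detected in 165 of 232 members (0 to 9 UMIs, median 2) and in 65 of 981 non-cycling cells. Its level was 149 CPM (136 to 163) against 24.3 (19.8 to 29.6), a ratio of 6.12 (4.92 to 7.67). *Mcm5*, of the same ring, had a ratio of 5.58, and the loader *Cdc6* one of 21.3 (8.79 to 67.3). *Gmnn*, whose product geminin blocks relicensing, stood at 164 against 25.8 CPM (6.37), whereas its target *Cdt1* was the exception below 2-fold over all cells, at 46.3 against 24.8 CPM (1.86, 1.44 to 2.42). In deep cells all 17 tested genes of this list were at least 2-fold higher, with a lowest ratio of 2.17.

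Of 26 genes of polymerases and the fork, 22 were at least 2-fold higher and 0 lower (median 4.02, deep 2.87). *Pcna*, the sliding clamp, was detected in 190 members with up to 17 UMIs and stood at 210 CPM (195 to 226) against 60.4 (53.1 to 68.5), a ratio of 3.48. The primase subunit *Prim1* had a ratio of 5.52, the leading-strand polymerase *Pole* 12.9 (5.96 to 33.3). *Pclaf*, a partner of the clamp, reached 748 CPM against 22.6 (33.1, 26.9 to 41.2).

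Genes that make deoxynucleotides followed, with 18 of 22 at least 2-fold higher and 0 lower (median 2.83, deep 2.56). *Rrm2*, the regulated subunit of ribonucleotide reductase, was detected in 159 members and in 16 non-cycling cells, and its 549 UMIs against 19 gave 167 CPM against 4.67 (35.8, 22.7 to 59.9). The large subunit *Rrm1* had a ratio of 8.37, thymidine kinase *Tk1* 22.5 (14.8 to 35.8), thymidylate synthase *Tyms* 9.17 and *Dut*, which keeps uracil out of DNA, 5.41. Repair and checkpoint genes were higher in 17 of 20 (median 6.0, deep 4.89). They include the checkpoint mediator *Clspn* (67.6 against 3.19 CPM, ratio 21.2).

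Replication-dependent histones were higher in 17 of 24 tested members of the list, of 53 listed (median 3.16, deep 7.81). Their mRNAs mostly lack a poly(A) tail, so the counted molecules are a small share of the whole. *Hist1h2ap* stood at 140 against 9.83 CPM (14.3, 10.3 to 20.3) and *Hist1h2ae* at 158 against 21.9 (7.21), while the linker histone gene *Hist1h1c* stood at 59.1 against 67.8 (0.87, 0.72 to 1.05). Of 30 chromatin genes, 24 were higher and 0 lower (median 2.997). *Hmgb2*, a DNA-bending protein, was detected in all 232 members (median 27 UMIs) at 2080 CPM against 442 (4.70, 4.46 to 4.96), and the histone variant *H2afz* at 1978 against 626 (3.16).

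Most cyclins and their kinases stood higher. Of 23 tested, 18 were at least 2-fold higher and 1 at least 2-fold lower (median 7.14, deep 5.90). *Ccna2*, the cyclin of S and G2 phase, was detected in 162 members and 15 non-cycling cells, at 154 CPM (141 to 168) against 3.93 (2.25 to 6.38), a ratio of 39.3 (23.9 to 69.2). The mitotic cyclin *Ccnb1* had a ratio of 35.7 (14.9 to 112), *Ccnb2* 12.2, and *Ccne1*, the cyclin of S phase entry, 4.92 (3.31 to 7.49). Of the cyclins of the G1 phase, *Ccnd2* was the lower one, at 101 against 202 CPM (0.50, 0.44 to 0.57), a value at the 2-fold limit that lay inside it in deep cells (0.59) and in *Gzmb*-positive cells (0.52), and *Ccnd3* stood at 132 against 146 (0.91, 0.80 to 1.03). Their partner *Cdk4* had a ratio of 2.68 (2.35 to 3.05) and *Cdk6* one of 1.40. The mitotic kinases *Plk1* and *Aurkb* had ratios of 28.1 (12.6 to 77.9) and 21.5 (12.3 to 41.1).

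The 6 tested inhibitors of cyclin-dependent kinases went both ways, with 3 higher and 1 lower (median 2.05), and 2 and 0 in deep cells (median 1.56). *Cdkn1b*, which encodes p27 and holds resting cells in G1, stood at 35.6 CPM (29.5 to 42.7) against 89.7 (80.7 to 99.4), a ratio of 0.40, and at 0.60 (0.41 to 0.90) in deep cells. *Cdkn2a*, which encodes p16 and p19Arf, stood higher at 25.6 against 5.16 CPM (4.96, 3.04 to 8.42), as did *Cdkn2c* for p18 (2.48) and *Cdkn3*, a phosphatase of mitotic kinases (11.6). *Cdkn1a*, which encodes p21, had a ratio of 1.63 (1.41 to 1.88) over all cells and 0.79 (0.65 to 0.97) in deep cells, so its direction differed between these 2 contrasts.

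Among 21 E2F, Rb, MuvB and Myb genes, 9 were higher and 0 lower (median 1.76, deep 2.25). The highest ratio was that of *Mxd3*, a partner of Max, with 70 UMIs against 1 (86.7, 15.1 to 3474). The higher factors included *E2f1*, an activator of replication genes, at 34.4 against 4.42 CPM (7.78, 4.71 to 13.6), *E2f8*, a late repressor, with 62 UMIs against 2 (38.4, 10.2 to 324), *Mybl2* for B-Myb at 22.3 (9.92 to 62.1) and *Foxm1* at 25.6 (8.36 to 128). Genes of the pocket proteins and of the MuvB core stood near 1, with *Rb1* at 0.98 (0.65 to 1.47), *Rbl2* at 0.90 (0.74 to 1.10) and *Lin54* at 1.15 (0.74 to 1.81). *Myc*, an early driver of growth, stood at 47.8 against 59.2 CPM (0.81) and at 1.23 (0.85 to 1.81) in deep cells.

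Genes of division had the highest medians of the role lists over all cells. In deep cells the median of the 14 histones still tested stood higher. Of 30 genes of the spindle checkpoint and anaphase, 26 were higher and 0 lower (median 14.6, deep 7.31), and of 32 genes of kinesins, spindle and cytokinesis, 31 were higher and 0 lower (median 10.4, deep 7.50). *Cdc20*, the activator of the anaphase-promoting complex, stood at 64.8 against 2.70 CPM (24.0, 13.1 to 48.8), and *Ube2c*, its ubiquitin-conjugating enzyme, at 325 against 27.0 (12.02). *Knl1*, a kinetochore scaffold, had 155 UMIs against 3 (64.02, 21.5 to 314), and the mitotic kinesin *Kif2c* had 67 against 0. Securin, *Pttg1*, was an exception at 87.4 against 87.0 CPM (1.00, 0.86 to 1.18).

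Of the spindle genes, *Tpx2*, a microtubule nucleator, had a ratio of 29.2 (17.2 to 54.0), *Nusap1*, a bundling protein, 22.6 and *Prc1*, of the central spindle, 6.94. *Stmn1*, a tubulin-binding protein, was detected in 228 members (median 8 UMIs) and 138 non-cycling cells, at 646 CPM against 57.5 (11.2, 9.81 to 12.9). The centromere genes were higher in 11 of 13 (median 6.84, deep 4.40), among them the centromeric histone *Cenpa* at 320 against 54.5 CPM (5.87) and the kinetochore motor *Cenpe* at 57.2 against 1.72 (33.3). Of 17 condensin and cohesin genes 11 were higher (median 2.38, deep 3.18), from the condensin subunit *Smc2* at 9.27 (7.44 to 11.6) and the cohesin acetyltransferase *Esco2*, with 125 UMIs against 2, to the cohesin subunit *Rad21* at 2.38.

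**Figure D2:**
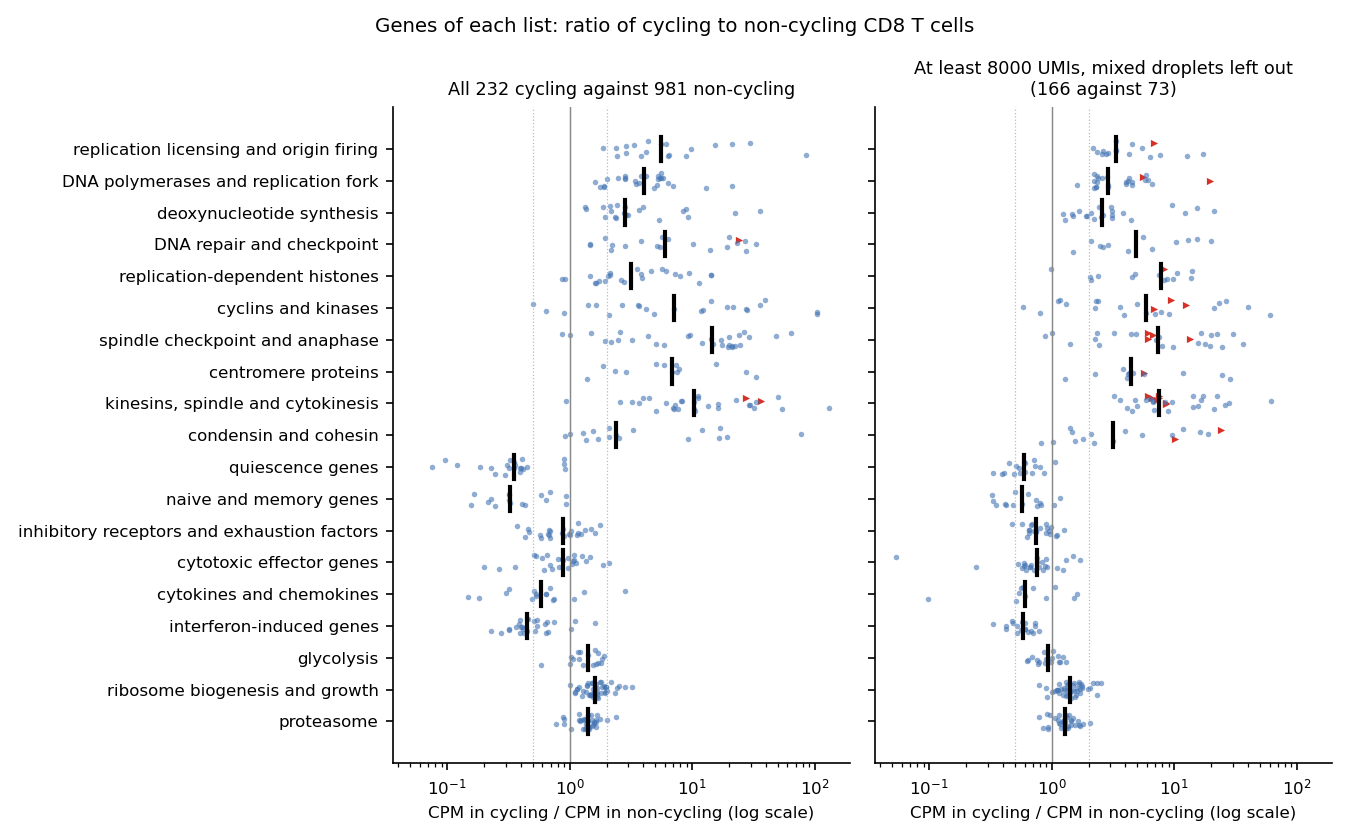
Each point is a tested gene of the list named at the left, placed by its CPM in cycling over its CPM in non-cycling CD8 T cells (log scale), with red triangles for genes at 0 in non-cycling cells set at a floor of 3 counts; black bars are medians, and dotted lines mark 2-fold. The left panel has all cells and the right panel deep cells: the medians of the replication and division lists stay right of 1 in both, while the quiescence median moves from 0.35 to 0.60 and the glycolysis median from 1.42 to 0.93.

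The promoters of these lists held the CHR letters to different extents. Over 27025 RefSeq genes, a window of 300 bases (250 before and 50 after the start) held TTTGAA or TTCGAA in 19.4%, and over the tested genes with a promoter in 14.2%. The letters stood in 23 of 32 promoters of the kinesin, spindle and cytokinesis list (71.9%), in 18 of 28 of the spindle checkpoint and anaphase list (64.3%) and in 9 of 18 of the centromere list. They stood in 3 of 21 promoters of the polymerase and fork list (14.3%), 2 of 21 of the deoxynucleotide list (9.52%) and 2 of 20 of the quiescence list (10.0%). Between these lay the licensing list with 6 of 16 (37.5%) and the cyclin and kinase list with 6 of 20. So did the interferon-induced genes with 6 of 19 (31.6%), a list that stood lower in the members. The CHR letters were thus not confined to the division lists. The E2F letters TTTCCCGC or TTTGGCGC showed another order: 1.63% of all promoters, 7 of 16 in the licensing list (43.8%) and 1 of 28 in the checkpoint and anaphase list (3.57%). The polymerase and fork list had 5 of 21 (23.8%), but the deoxynucleotide list only 1 of 21 (4.76%). That was below the centromere list with 2 of 18 (11.1%) and the kinesin list with 3 of 32 (9.38%), so the letters did not cleanly separate replication from division lists. CCAAT stood in 37.9% of all promoters, in 58.8% of 291 genes whose whole interval lay above 2-fold and in 38.7% of 155 whose whole interval lay under it in the other direction. A match of letters is a description and not a binding site.

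The cells were ordered along the cycle by 42 S phase genes and 50 G2/M genes, without the 4 genes of the rule. G2/M UMIs outnumbered S UMIs in 182 of 232 members (78.4%, 72.6 to 83.6%), but also in 75.2% of the non-cycling cells, so the balance of these 2 sums does not by itself place a cell in a phase. The G2/M share of a member ran from 31.1 to 99.0%, with a median of 64.8%, and 53 members lay between 45 and 55%. The members were divided by this share into 78 cells with the lowest, 77 with the middle and 77 with the highest values, with median UMIs of 13926.5, 14364 and 10519.

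The genes named here are outside these sums, but they were read in the same cells that the sums ordered. The S phase gene *Mcm3* had 204, 162 and 65.4 CPM from the lowest to the highest G2/M share, *Ccne1* 52.8, 39.8 and 20.0, and *E2f1* 71.0, 21.2 and 6.33. *Tk1* had 161, 142 and 66.4. In the other direction, *Ccna2* had 95.2, 141 and 243, *Ccnb1* 16.4, 35.6 and 87.5, and *Plk1* 13.8, 37.3 and 80.2. *Cdkn1a* had 177, 146 and 79.1 CPM. Summed histone mRNA had 1003, 1333 and 1377. Of the T cell genes, some ran in an order and some did not: *Gzmb* had 1736, 1566 and 1844 CPM and *Pdcd1* 217, 217 and 189. *Ccl5* had 1161, 1298 and 2367, *Tcf7* 26.8, 29.6 and 53.8, and *Gzma* 190, 290 and 341.

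**Figure D3:**
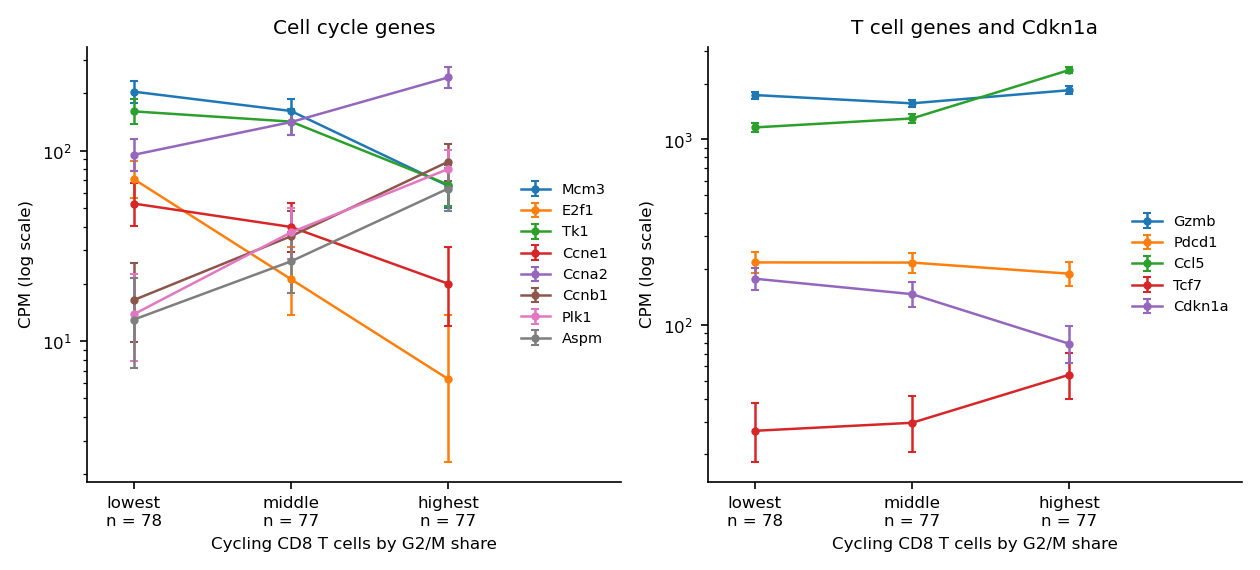
Levels in CPM (log scale, bars are 95% Poisson intervals) in cycling CD8 T cells with the lowest, middle and highest share of G2/M among S and G2/M UMIs. Mcm3, E2f1, Tk1 and Ccne1 run down and Ccna2, Ccnb1, Plk1 and Aspm run up, E2f1 from 71.0 to 6.33 and Plk1 from 13.8 to 80.2, while Gzmb stays between 1566 and 1844.

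Genes of resting T cells were at the other end. Of 22 quiescence genes, 0 were at least 2-fold higher and 19 at least 2-fold lower over all cells (median 0.35), and 5 of 17 were lower in deep cells (median 0.60). *Klf2*, a factor of quiescence and tissue exit, was detected in 93 of 232 members (0 to 27 UMIs) and 618 of 981 non-cycling cells, at 118 CPM (106 to 130) against 632 (607 to 657), a ratio of 0.19, and of 0.39 (0.33 to 0.47) in deep cells. *Klf3*, its relative, had a ratio of 0.0965 (0.0615 to 0.145) and in deep cells 12 UMIs against 26, too few for the minimum of 50. The antiproliferative gene *Btg1* had 0.29 (deep 0.41) and *Il7r*, the receptor of a survival cytokine, 0.24 (deep 0.33). *Bach2*, a repressor of effector genes, had 6 UMIs in members against 98, and 3 against 11 in deep cells. The egress receptor *S1pr1* had 44 against 240, with a deep ratio of 0.54.

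Of 16 naive and memory genes, 11 were lower and 0 higher (median 0.32), and 6 of 15 were lower in deep cells (median 0.58). *Tcf7*, which encodes the factor TCF1 of stem-like T cells, was detected in 36 members (15.5%) and 354 non-cycling cells (36.1%), at 35.6 CPM (29.5 to 42.7) against 155 (143 to 168), with a ratio of 0.23 over all cells and 0.42 (0.30 to 0.57) in deep cells. The lymph node receptor *Ccr7* had a ratio of 0.16 and *Bcl2*, a survival gene, 0.21, with deep ratios of 0.33 and 0.50. *Eomes*, a factor of effector and memory cells, stood at 49.3 against 53.3 CPM (0.92, 0.75 to 1.14). Of the 36 members with *Tcf7*, 29 also held a *Pdcd1* UMI, and among the members without *Tcf7* 147 held *Pdcd1* and 49 did not.

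The inhibitory receptors and exhaustion factors had 0 genes higher and 4 lower of 25 (median 0.89), and 0 and 1 of 21 in deep cells (median 0.75). *Pdcd1*, which encodes PD-1, was detected in 176 members (75.9%, up to 17 UMIs) and in 278 non-cycling cells (28.3%), yet its levels were 209 CPM (193 to 225) against 140 (129 to 152), a ratio of 1.49 (1.33 to 1.67) and 1.25 (1.05 to 1.499) in deep cells. *Havcr2*, for TIM-3, had 86.2 against 53.8 CPM (1.60, 1.34 to 1.92) but 0.99 (0.76 to 1.29) in deep cells. *Lag3* stood at 148 against 167 CPM (0.89), *Tigit* at 114 against 169 (0.67) and *Ctla4* at 162 against 237 (0.68), with deep ratios of 0.66, 0.63 and 0.47. *Tox*, the factor of exhaustion, stood at 50.5 against 43.5 CPM (1.16, 0.93 to 1.44). The activation gene *Nr4a1* had a ratio of 0.37 over all cells and 0.90 (0.67 to 1.23) in deep cells.

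Of 26 cytotoxic genes, 1 was at least 2-fold higher and 3 were lower, with 10 above 1 (median 0.88). In deep cells 0 of 25 were higher and 2 lower, with 5 above 1 (median 0.76). *Gzmb*, the main granzyme, was detected in 200 members (86.2%, median 12 UMIs, up to 281) and in 500 non-cycling cells (51.0%, median 1, up to 184). Its levels were 1706 CPM (1662 to 1751) against 1158 (1125 to 1191), a ratio of 1.47, but 0.87 (0.83 to 0.92) in deep cells. *Prf1*, for perforin, turned in the same way, from 1.35 (1.22 to 1.499) to 0.59 (0.52 to 0.68), and *Gzmc* from 2.11 (1.98 to 2.25) to 0.62 (0.57 to 0.66). *Gzma* stood at 270 against 749 CPM (0.36) and at 1.11 (0.95 to 1.31) in deep cells. The ratio of *Gzmf* was 0.20, and 0.0535 in deep cells, but 658 of its 917 UMIs in non-cycling cells came from 1 cell.

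Of the secreted factors, 1 of 16 cytokine and chemokine genes was higher and 5 were lower (median 0.59, deep 0.60). *Ccl5*, the chemokine of effector and memory CD8 T cells, was detected in 206 of 232 members (88.8%, median 8.5 UMIs) and in 831 of 981 non-cycling cells (84.7%, median 16). It stood at 1558 CPM (1516 to 1602) against 8522 (8432 to 8612), a ratio of 0.18, which was 0.57 (0.54 to 0.60) in deep cells. *Ifng*, for interferon-γ, stood at 188 CPM (174 to 204) against 357 (339 to 376), with ratios of 0.53 over all cells and 0.54 (0.47 to 0.62) in deep cells. *Csf2*, for GM-CSF, was the higher one over all cells, at 26.5 against 9.34 CPM (2.84, 1.92 to 4.27). In deep cells 0 of 11 tested genes of this list were at least 2-fold higher and 1 was at least 2-fold lower, and the highest ratio was 1.62.

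Along the sum itself, *Ccl5*, *Klf2* and *Tcf7* were already lower in the cells with a sum of 1 to 2 and lower again in those with 3 to 5. *Ccl5* had 8522, 5187, 2033, 1657 and 1309 CPM in cells with a sum of 0, 1 to 2, 3 to 5, 6 to 12 and over 12. *Klf2* had 632, 371, 113, 98.8 and 131, and *Tcf7* 155, 107, 42.1, 35.0 and 33.4. *Prf1* was highest in the middle, at 177, 371, 414, 218 and 181, and *Gzmb* had 1157, 2288, 2201, 1678 and 1523. Median UMIs per cell rose over the same steps from 3248 to 15964, and their part in these levels was not tested.

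**Figure D4:**
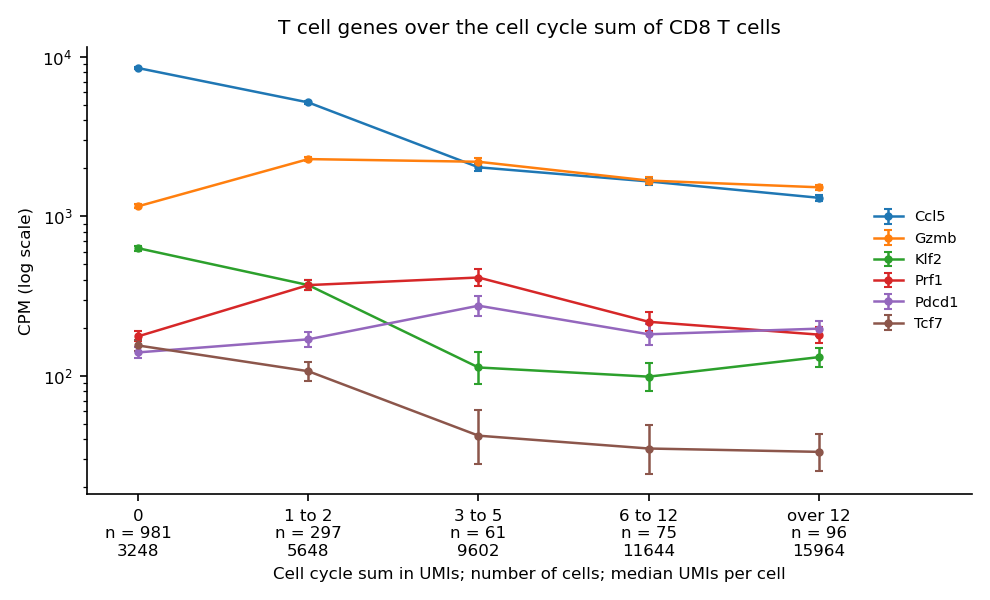
Levels of 6 T cell genes in CPM (log scale, bars are 95% Poisson intervals) in CD8 T cells by their sum of Mki67, Top2a, Cdk1 and Birc5 UMIs, with the number of cells and their median UMIs under each step. Ccl5 runs down from 8522 to 1309 and Tcf7 from 155 to 33.4, Prf1 peaks at 414, and the median UMIs run up from 3248 to 15964.

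Among cells with a *Gzmb* UMI alone, 200 cycling and 500 non-cycling, 613 of 7023 genes (8.73%) were at least 2-fold higher and 481 (6.85%) lower. The cycle lists had medians near those over all cells, with 13.3 for the spindle checkpoint and anaphase (27 of 30 higher) and 4.57 for licensing (16 of 17). *Gzmb* itself, on which these cells were selected, is not compared here. *Pdcd1* had a ratio of 1.18, *Havcr2* 1.17 and *Prf1* 0.95. *Ccl5* had 1664 against 10494 CPM (0.16), *Ifng* a ratio of 0.41, *Klf2* 0.23 and *Tcf7* 0.21. *Gzmc* stood at 1.38 and *Gzma* at 0.27. The groups still differed in depth, with medians of 12724.5 and 3672 UMIs. In *Gzmb*-positive cells of at least 8000 UMIs, 162 cycling and 60 non-cycling, the ratio was 0.56 for *Prf1*, 0.61 for *Gzmc*, 0.93 for *Gzma*, 0.50 for *Ccl5*, 0.45 for *Ifng*, 0.35 for *Klf2*, 0.38 for *Tcf7* and 1.18 for *Pdcd1*. Unlike the deep cells above, this set included mixed droplets. Of 26 cytotoxic genes in all *Gzmb*-positive cells, 4 were above 1, 0 at least 2-fold higher and 5 lower (median 0.72).

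Shares of cells with a UMI were also read after each cell was thinned to 1500 UMIs, which left all 232 members and 893 non-cycling cells. *Gzmb* was then present in 63.8% of members against 42.0%, *Pdcd1* in 24.1% against 15.1% and *Havcr2* in 11.2% against 5.26%. *Tigit* was present in 15.1% against 18.7%, *Klf2* in 14.7% against 46.0% and *Tcf7* in 4.31% against 19.6%. In 148 macrophage-marker cells without a CD3 UMI, which should lack *Gzmb*, it was present in 3.38% after the same thinning. Unthinned shares were 86.2% against 51.0% for *Gzmb* and 10.1% in the macrophage-marker cells, whose median depth was 6191.5 UMIs, against 12439 in the members. *Klf2* was present in 22.3% of the thinned macrophage-marker cells, a cell type that can express it, so its background was not measured. *Pdcd1* and *Tcf7* were at 0 of 148 there, which allows a share of up to 2.46% by the exact interval. *Havcr2* was at 3.38% there and at 12.8% unthinned. Whether these cells expressed it was not tested, so its background was not measured either.

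Interferon-induced genes stood lower with and without the mixed droplets, and a few of them moved strongly with these. Of 28, 0 were at least 2-fold higher and 16 lower over all cells (median 0.45), 19 of 25 were lower without mixed droplets (median 0.40, where 8.12% of 7646 tested genes were lower), and 5 of 18 in deep cells (median 0.59). *Rsad2*, for viperin, had a ratio of 1.61 (1.26 to 2.06) over all cells and 0.24 without the mixed droplets. It was detected in 11 members, with up to 132 UMIs in 1 of them. *Isg15*, a ubiquitin-like modifier, moved from 0.66 to 0.32 and *Ifit3*, an RNA-binding antiviral protein, from 0.52 to 0.13.

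Growth genes stood higher by less than the cycle genes. Of 46 genes of ribosome biogenesis and growth, 7 were at least 2-fold higher, 0 lower and 45 above 1 (median 1.62, deep 1.42). *Ran*, the GTPase of nuclear transport and spindle assembly, stood at 1168 against 365 CPM (3.20, 3.01 to 3.40), *Srm*, of spermidine synthesis, at 105 against 47.9 (2.19) and *Npm1*, a nucleolar chaperone, at 1630 against 1079 (1.51). Of 72 nuclear genes of the respiratory chain, 68 were above 1 and 0 at least 2-fold higher (median 1.34, deep 1.19), and of 36 proteasome genes 32 were above 1 (median 1.40, deep 1.28). Glycolysis had a median of 1.42, with *Ldha*, lactate dehydrogenase, at 1715 against 892 CPM (1.92), *Pkm*, pyruvate kinase, at 1.65 and *Gapdh* at 1.60. In deep cells the glycolysis median was 0.93 and *Gapdh* stood at 1.03 (0.98 to 1.08). *Tfrc*, the iron receptor, had 56.9 against 22.8 CPM (2.49, 1.93 to 3.23; deep 1.49), while the costimulators *Icos* and *Cd28* had ratios of 0.43 and 0.44 (deep 0.44 and 0.54).

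Regulatory T cells (*Foxp3*-positive CD4 T cells) held 283 cycling cells of 3020 (9.37%) by the same minimum, and conventional CD4 T cells 54 of 1813 (2.98%), against 15.4% of CD8 T cells. At an equal 1500 UMIs per cell, 49 of 1416 CD8 T cells (3.46%, 2.57 to 4.55%), 94 of 2593 regulatory T cells (3.63%) and 20 of 1520 conventional T cells (1.32%) reached the minimum of 3. At equal depth the shares of CD8 and regulatory T cells lay within each other's counting error. With a minimum of 1 UMI the shares were 19.0%, 18.4% and 11.8%.

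Compared directly with cycling regulatory T cells, the cycling CD8 T cells had like levels of most cycle genes and other levels of the genes of their lineage. Of 7672 tested genes, 221 (2.88%) were at least 2-fold higher in the CD8 cells and 422 (5.5%) lower, 643 (8.38%) in either direction. The median ratio over all tested genes was 0.93. Against cycling conventional CD4 T cells, 311 of 6283 (4.95%) were higher and 402 (6.4%) lower, but 6 of those 54 cells were mixed droplets, 5 of them with melanoma RNA, and the lower genes were led by *Car6*, *Cryab* and *Tm4sf1*, so this contrast is not read further. Of the 20 licensing genes, 26 polymerase and fork genes and 18 centromere genes, 0 differed 2-fold (medians 0.92, 1.07 and 0.81), and *Ccna2* stood at 154 against 186 CPM. Division genes lay somewhat lower in the CD8 cells, with a median of 0.73 over 50 G2/M genes against 0.95 over 42 S phase genes, 0 of either at least 2-fold apart. Of 29 histone genes 5 were at least 2-fold lower (median 0.73), and *Cenpf* had 101 against 186 CPM (0.55).

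The 25 tested cytotoxic genes had 18 higher and 1 lower (median 7.17). *Gzmc* stood at 758 against 13.01 CPM (58.2, 42.3 to 82.5), *Gzmk* at 177 against 3.08 (57.5, 30.1 to 126), *Prf1* at 239 against 24.0 (9.98) and *Gzmb* at 1706 against 627 (2.72). *Eomes* had 162 UMIs against 1 (144, 25.5 to 5723), and the lymphotactin gene *Xcl1* 450 against 7 (57.1, 27.5 to 143). *Pdcd1* stood at 209 against 59.6 CPM (3.50). On the side of the regulatory T cells were *Lrrc32*, which presents latent TGF-β (2 UMIs against 53), the chemokine receptor *Ccr8* (0.0833), *Ctla4* (162 against 782 CPM, 0.21), *Il2ra* (0.18) and *Icos* (0.18). *Mmp12*, a macrophage metalloproteinase, was among the highest at 256 UMIs against 2, and its level against non-cycling CD8 cells moved from 6.34 to 3.71 without mixed droplets.

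By tumor, 28 of 141 CD8 T cells tagged as B16 were cycling (19.9%, 13.6 to 27.4%) and 5 of 21 tagged as B16–IL-33 (23.8%, 8.22 to 47.2%), a difference of 3.95 percentage points (−13.4 to 28.1). A difference was not detectable at this depth. The hashtag library held 1730 tag UMIs in all, 22837655 UMIs matched no tag, 31 of the 33 tagged members rested on 1 tag UMI, and 199 members carried no usable tag. In the 28 tagged members from B16, *Gzmb* stood at 1061 CPM and *Pdcd1* at 269. In the 5 from B16–IL-33 these were 754 and 143, with 37 and 7 UMIs.

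A T cell clone is a set of cells with the same rearranged receptor, here the same clonotype in the deposited TCR table, and a clone of at least 2 CD8 T cells is called expanded. Of 212 members with a clonotype, 81 (38.2%, 31.6 to 45.1%) belonged to expanded clones, against 153 of 713 non-cycling cells (21.5%, 18.5 to 24.7%). By identical nucleotides of the beta CDR3, the junction that meets antigen, the shares were 123 of 209 (58.9%, 51.9 to 65.6%) and 220 of 695 (31.7%, 28.2 to 35.3%). Among *Gzmb*-positive cells the shares by clonotype were 38.04% (31.001 to 45.5%) and 30.6% (26.0 to 35.4%), whose intervals overlap, and by beta CDR3 61.0% (53.5 to 68.1%) and 44.7% (39.6 to 49.9%). In cells of at least 8000 UMIs, mixed droplets included, the shares by clonotype were 38.7% of 168 and 17.6% of 74. The share of cells that were cycling was 15.1% (12.8 to 17.7%) in clones of 1 cell and 26.0% (19.1 to 33.9%) in clones of 2. It was 24.1% (15.1 to 35.0%) in clones of 3 to 4 and 31.2% (21.1 to 42.7%) in the 10 clones of 5 or more. Median UMIs per cell in these 4 steps were 4708, 5736.5, 5661 and 5972, and the part of depth was not tested.

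**Figure D5:**
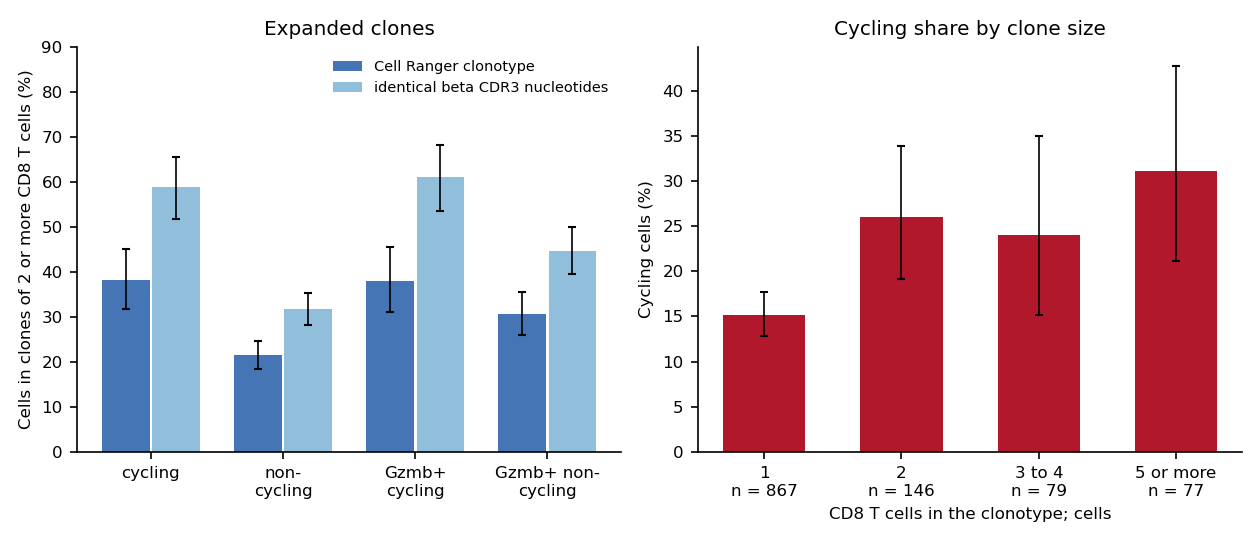
Left, percent of cells in clones of at least 2 CD8 T cells, by the deposited clonotype and by identical beta CDR3 nucleotides; right, percent of CD8 T cells that were cycling by clone size, with the number of cells. Bars carry 95% exact binomial intervals. Cycling cells stand above non-cycling cells by both definitions, 38.2% against 21.5% and 58.9% against 31.7%, and clones of 1 cell have the lowest cycling share, 15.1%.

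Cycling was spread over clones and within them. Of 107 expanded clones, 47 held a cycling cell, 21 held at least 2, 28 held both cycling and non-cycling cells and 11 held cycling cells only. The receptors of 4 clones are shown as examples with at least 3 cycling cells, from clones where all cells cycled to clones where most did not, with capitals for the codons of the conserved cysteine and phenylalanine that bound the CDR3. Clone A had 10 CD8 T cells, 6 of them cycling, and its beta chain joined TRBV10 to TRBJ1-1. Clone B had 8, with 4 cycling (TRBV30, TRBJ1-1), clone D 4, all cycling (TRBV20, TRBJ2-4), and clone E, with 14 cells, had 3 cycling and 6 non-cycling (TRBV15, TRBJ2-1).
Clone A beta: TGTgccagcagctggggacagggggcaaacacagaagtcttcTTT
Clone B beta: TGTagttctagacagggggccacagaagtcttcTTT
Clone D beta: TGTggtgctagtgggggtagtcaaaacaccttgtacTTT
Clone E beta: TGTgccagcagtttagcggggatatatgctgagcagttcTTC
In the table each of these clones had 1 alpha chain, with TRAV7D-2 in A, TRAV12D-2 in B, TRAV14D-1 in D and TRAV6N-7 in E. All 4 cells of D and all 8 cells of B held a *Gzmb* UMI.

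The beta V genes of the members were not those of the non-cycling cells in the same proportions. TRBV19 was used by 46 of 209 members (22.0%) and by 68 of 695 non-cycling cells (9.78%). Counted once for each beta CDR3 sequence it made up 32 of 155 (20.6%, 14.6 to 27.9%) against 55 of 570 (9.65%, 7.35 to 12.4%), and the most common of its sequences was found in 10 CD8 T cells. The entry TRBV12-2 alone went the other way, with 3 of 155 sequences (1.94%, 0.40 to 5.55%) against 52 of 570 (9.12%, 6.89 to 11.8%). A separate entry that names both TRBV12-2 and TRBV13-2 had 12 of 155 (7.74%) against 40 of 570 (7.02%). TRBV19 and TRBV12-2 were chosen after their values were seen, from 22 V gene entries. At least 2 productive beta chains, a mark of droplets with more than 1 T cell, were present in 28 of all 232 members (12.1%) and 64 of all 981 non-cycling cells (6.52%). Only 209 and 695 of these cells had a beta chain at all. The gap between the 2 shares thus also holds how often a chain was read.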

How the data were processed

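The members and the gene lists were chosen with earlier results of these data known. The authors deposited raw counts of UMIs per gene and barcode, of UMIs per hashtag and barcode, and of UMIs per TCR contig with clonotypes, with no normalization. The matrix header names Cell Ranger 3.1.0 and the submitters' processing notes Cell Ranger 6.1.1, with mm10; reads were aligned to a combined human and mouse reference, and only its 31053 mouse genes were used. Cells had at least 200 detected genes and under 5% mitochondrial UMIs (9844 cells, median 2639 UMIs, range 254 to 78650, 9078 of them with at most 2500 genes). No doublet caller was run, and cells with at least 2 productive beta chains were left out in an alternative. Barcodes of the gene expression library were shared with the hashtag library for 11756 and with the TCR table for 6665.

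UMIs were summed over the cells of a group and divided by the group's total (CPM). A gene was compared with at least 50 UMIs in both groups together, and called at 2-fold. A gene at 0 was set at 3 counts over the group. Ratios carry 95% exact conditional binomial intervals, levels exact Poisson and shares Clopper-Pearson intervals, which treat UMIs or cells as independent and cover counting error only. The whole series is 1 pooled sample, so no test was made. Each list is described by its counts and median beside those of all tested genes. The median ratio of all tested genes was 1.02 in *Gzmb*-positive cells and 1.01 without mixed droplets. Genes named are members of the lists, plus those at the ends of each ranking by ratio among genes whose interval leaves 1. Droplets were thinned with seed 1. A tumor was assigned to a barcode with at least 1 tag UMI and all of them from that tumor's tags. Gene positions came from GENCODE vM21 (31011 IDs matched), promoters from RefSeq GRCm38.p6, by the first listed start. Human UMIs were 8562 of the library beside 43420305 mouse UMIs. Python 3.11.15, NumPy 2.4.6, SciPy 1.17.1 and pandas 2.3.3 were used, and the ratio code was tested on simulated data. Values of some genes of the lists are not reported here.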

Additional observations from a re-analysis of the deposited data

How the results depend on the processing

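No paired analysis was possible because all cells come from 1 pooled sample, and for the same reason no replicate could be left out. The share of cycling CD8 T cells was 19.9% with a sum of at least 2 UMIs, 12.5% with at least 5, 5.58% with at most 2500 detected genes, 18.1% with at least 2 Cd8 UMIs and no Cd4 or Foxp3 UMI, 22.7% in cells of at least 3000 UMIs, 50.8% in those of at least 8000 and 11.99% without Birc5 in the rule. At most 2500 detected genes gave 303 higher genes, 225 among Gzmb-positive cells and 292 that differed from cycling regulatory T cells. A gene minimum of 200 UMIs, which tests fewer genes, gave 282 higher and 246 lower genes, 223 and 166 among Gzmb-positive cells, and 247 against regulatory T cells. Only cells of at least 8000 UMIs, mixed droplets included, left 185 lower genes, and also 185 among Gzmb-positive cells. At 1500 UMIs the CD8 share was 7.49% with a sum of at least 2, 1.27% with at least 5 and 1.66% with at most 2500 genes; it was 10.5% at 3000 UMIs and 15.4% unthinned. With the first of each tumor's tags only, the tumors differed by 29.2 points, and the sign turned, within the interval, with a sum of at least 5 (-9.63), with the second tags (-8.16) and at 8000 UMIs (-7.14). Expanded clones held 58.9% of members by beta CDR3, 20.3% from 3 cells on and 27.4% when clones were counted only over cells of at least 8000 UMIs. Of the other values, 64 under planned and 17 under added alternatives stayed within 1.5 times the count or within the interval of the share. The comparisons at 8000 UMIs, without mixed droplets and without 1 rule gene were chosen after seeing the data. Depth and the choice of deep cells limit every T cell state gene whose ratio in deep cells differs from that in all cells. The make-up of the deep comparison cells limits the reading of every ratio in deep cells. No value here carries an error between animals.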

Other observations

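The comparisons over all cells include the mixed droplets. The 3 cycling cells with melanoma RNA held 222 to 682 UMIs of the melanoma markers, with a median of 45296 UMIs in all, while no other member held more than 3. The 13 with macrophage or monocyte RNA held 11 to 432 UMIs of those markers, and no other member more than 6. Whether the cell cycle UMIs of these 16 droplets came from the T cell or from the other cell was not tested. Hemoglobin transcripts were at 0 in all members, against 609 UMIs of Hba-a1 and 774 of Hbb-bs in non-cycling cells, but 1381 of these 1383 UMIs lay in 1 non-cycling cell.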
